A study of Rattus norvegicus with 16 samples.

Results

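The genes described here encode the secreted ligands of the VEGF, angiopoietin and PDGF families in rat glomeruli, the filtering tufts of the kidney. Members were chosen by name: 10 ligand genes were listed, and 9 of them were found among the 13222 genes of the expression table, namely Vegfa, Vegfb, Vegfc, Angpt1, Angpt2, Pdgfa, Pdgfb, Pdgfc and Pdgfd. Pgf was not analysed here.

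In the glomerulus these ligands carry signals between neighbouring cells. Podocytes, the epithelial cells on the outside of the capillaries, make Vegfa, which acts on VEGF receptors of the endothelial cells within. Angpt1 activates the endothelial receptor Tek, and Angpt2 competes with it at the same receptor in many settings. Pdgfb made by endothelial cells acts on Pdgfrb of mesangial cells, the contractile support cells between the capillaries, and is needed for their recruitment during development.

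Glomeruli came from 4 groups of 4 male Wistar rats of about 175 g, and were sieved from the kidneys on day 11. The control group is labelled healthy. The PAN group received puromycin aminonucleoside (PAN), a podocyte toxin that causes nephrotic syndrome in rats, by intravenous injection. The other 2 groups received PAN with daily oral gavage of pioglitazone, a drug used in diabetes, or of GQ-16, a compound known here by its code name. A sham vehicle was gavaged daily as well, but the labels do not say whether the PAN group, the control group or both received it. Doses are not given in the labels. The labels are the only ground for taking libraries as separate rats, so p-values measure the spread between these libraries. Replicate numbers only name the rats of a group, and pair nothing between groups.

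The libraries held 13351137 to 21977663 reads in the listed genes, and the lowest level of any member rested on 70 reads. Levels are given as CPM, that is, reads of a gene relative to all reads of the library on a fixed scale. Reads of 21 mitochondrial genes took 13.9 to 39.6% of the total in controls and 5.98 to 10.8% in PAN rats, so the 2 groups' totals are not made up alike. Between PAN and control the typical (median) gene differed by 0.28 on the log2 scale under the library total and -0.0025 under median-ratio scaling, which centres each library on its typical gene. For pioglitazone against control the median was 0.21 under the library total, and for GQ-16 against control it was 0.17. Changes are therefore given under both scalings, on the log2(CPM + 1) scale, from limma, a linear model fitted gene by gene with variances moderated across genes. The libraries carry numbers in the labels, and 5 of the 16 are numbered 25 or higher: 3 of PAN, 1 of PAN with pioglitazone, 1 of PAN with GQ-16 and none of the controls. The meaning of these numbers is not stated in the labels, and above 15 they fall largely on 1 group. As for the tissue label, all 15 podocyte, 12 of 14 endothelial and 10 of 12 mesangial and smooth muscle markers were in the table, and so were all 10 proximal tubule, 10 distal tubule and 12 leukocyte markers. In controls the median summed level was 4338 CPM for the podocyte markers and 9037 CPM for the proximal tubule markers, so the sieved glomeruli also held tubule RNA.

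The 250 bases before the start are shown for 3 members. Vegfa and Pdgfb followed different glomerular cell markers from rat to rat, and Pdgfa was 1 of the 2 members with a called change. The sequences are from the RefSeq promoter table of assembly GRCr8, a later build than the Rnor_6.0 assembly named in the submitters' processing notes. Capitals mark the GC box GGGCGG on either strand, which reads CCGCCC where it lies on the opposite strand. The Vegfa entry is the first of 2 for that gene, at chr9:22452604-22452853 on the plus strand. The Pdgfa entry lies at chr12:20759116-20759365 on the plus strand, and the Pdgfb entry at chr7:113438344-113438593 on the minus strand.
Vegfa: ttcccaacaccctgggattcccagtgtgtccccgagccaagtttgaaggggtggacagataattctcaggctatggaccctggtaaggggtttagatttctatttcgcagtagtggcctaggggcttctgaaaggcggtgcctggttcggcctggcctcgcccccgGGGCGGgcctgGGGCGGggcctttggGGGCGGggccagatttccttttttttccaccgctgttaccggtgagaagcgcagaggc
Pdgfa: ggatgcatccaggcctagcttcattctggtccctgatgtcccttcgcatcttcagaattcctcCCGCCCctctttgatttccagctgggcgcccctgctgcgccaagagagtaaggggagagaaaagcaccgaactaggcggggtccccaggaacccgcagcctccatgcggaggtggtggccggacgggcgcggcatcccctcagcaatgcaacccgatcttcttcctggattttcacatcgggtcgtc
Pdgfb: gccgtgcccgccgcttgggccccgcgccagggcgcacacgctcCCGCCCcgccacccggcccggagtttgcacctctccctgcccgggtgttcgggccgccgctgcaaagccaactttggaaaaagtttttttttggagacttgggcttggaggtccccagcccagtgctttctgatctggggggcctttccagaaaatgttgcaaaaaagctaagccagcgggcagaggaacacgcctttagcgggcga
The Vegfa window held 3 GC boxes, which began 84, 73 and 58 bases before the start. The Pdgfa and Pdgfb windows each held 1 on the opposite strand, at 187 and 207 bases before the start. GC content was 60.4% for Vegfa, 60.8% for Pdgfa and 63.6% for Pdgfb, beside a median of 51.2% over all promoters. Of 33469 promoter windows of this length 30.47% held GGGCGG. The core of the hypoxia response element, ACGTG, was searched on both strands and is in 16.57% of all windows; among the members it was found only in the Pdgfd window, 62 bases before the start. The nuclear receptor half-site AGGTCA, in 14.06% of all windows, was found in the Vegfb window and in the second Vegfa entry. None of the 3 motifs was in the Pdgfc window. A match of letters is a description of the window and not a bound site.

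Vegfa, the main growth and survival factor for glomerular endothelium, varied widely between the rats of a group. Its levels in the 4 control rats were 1963, 571.8, 692.5 and 1252 CPM (1120 ± 635, SD, n = 4). The PAN rats held 1611, 1706, 1635 and 1184 CPM (1534 ± 237, SD, n = 4). The control group alone spanned from 571.8 to 1963 CPM, so the PAN rats lay inside its range. Vegfa measured 661.1, 1126, 1737 and 2380 CPM in the rats given pioglitazone (1476 ± 747, SD, n = 4). In the GQ-16 group it stood at 2042, 1482, 2365 and 2625 CPM (2128 ± 493, SD, n = 4). The GQ-16 rats included the highest value of the series, but 1 of them lay below the highest control, and no comparison of Vegfa passed the test.

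Vegfb, a VEGF family ligand linked to fatty acid handling in other tissues, was called in no comparison. Vegfb measured 33.17, 24.72, 33.87 and 26.92 CPM in controls (29.7 ± 4.54, SD, n = 4), and 19.46, 30.9, 31.94 and 41.37 CPM in PAN rats (30.9 ± 8.97, SD, n = 4). The pioglitazone group averaged 24.5 ± 5.50 CPM and the GQ-16 group 27.1 ± 4.38 CPM (SD, n = 4 each), and all groups overlapped. Vegfc, the ligand of lymphatic growth, was tight within the PAN group. It measured 10.97, 6.287, 7.938 and 10.69 CPM in controls (8.97 ± 2.25, SD, n = 4) and 12.9, 14.26, 13.7 and 12.95 CPM in PAN rats (13.4 ± 0.650, SD, n = 4). Every PAN rat was above every control. Values of 11.94, 13.09, 8.224 and 18.57 CPM followed with pioglitazone (12.96 ± 4.28, SD, n = 4), and of 7.951, 10.22, 12.32 and 9.432 CPM with GQ-16 (9.98 ± 1.82, SD, n = 4). The GQ-16 rats all lay below the PAN rats in Vegfc with 3 of 4 inside the control range, while the pioglitazone group spread over both.

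Of the angiopoietins, Angpt2 was called in PAN against control and Angpt1 was not. Angpt1, the ligand that activates Tek and quiets endothelium, was listed at 17.59, 11.35, 14.52 and 13.76 CPM in controls (14.3 ± 2.57, SD, n = 4) and 9.295, 14.02, 11.48 and 20.4 CPM in PAN rats (13.8 ± 4.81, SD, n = 4). The pioglitazone rats averaged 13.1 ± 2.08 CPM and the GQ-16 rats 10.5 ± 2.14 CPM (SD, n = 4 each). The groups of Angpt1 overlapped in CPM. Angpt2 stood at 29.42, 12, 12.3 and 23.35 CPM in controls (19.3 ± 8.59, SD, n = 4). In PAN rats it was 52.41, 54.65, 42.65 and 41.04 CPM (47.7 ± 6.84, SD, n = 4). Every PAN rat was above every control, with a gap between 29.42 and 41.04 CPM. The pioglitazone rats held 46.8, 57.14, 32.6 and 45.89 CPM of Angpt2 (45.6 ± 10.1, SD, n = 4), and all 4 also lay above the controls. The GQ-16 rats held 14.72, 23.11, 38.86 and 32.33 CPM (27.3 ± 10.6, SD, n = 4), all below the PAN rats, with 2 of them inside the control range.

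Of the PDGF ligands 1, Pdgfa, was called in PAN against control, under the library total alone. Pdgfa, which acts on Pdgfra, measured 35.14, 23.57, 23.18 and 29.38 CPM in controls (27.8 ± 5.65, SD, n = 4) and 45.68, 33.84, 36.27 and 31.74 CPM in PAN rats (36.9 ± 6.15, SD, n = 4). It was 30.92, 30.35, 29.06 and 27.94 CPM with pioglitazone (29.6 ± 1.33, SD, n = 4), all below the PAN rats. It was 29.4 ± 2.52 CPM with GQ-16 (SD, n = 4), where the highest rat, at 31.91 CPM, just passed the lowest PAN rat at 31.74 CPM. Pdgfb was at 140.2, 156.4, 159.9 and 197.2 CPM in controls (163 ± 24.1, SD, n = 4) and at 231.2, 218.5, 220.6 and 142.3 CPM in PAN rats (203 ± 41.0, SD, n = 4). Of the PAN rats 3 were above all controls and the fourth was near the lowest control. Pdgfb spread from 158.9 to 296.1 CPM with pioglitazone (221 ± 56.9, SD, n = 4) and from 166.5 to 190.9 CPM with GQ-16 (176 ± 10.9, SD, n = 4). Pdgfc, like Pdgfd a ligand that must be cut by a protease before it binds, ran from 3.936 to 23.63 CPM over the 16 rats, a 6.005-fold range and the widest of the 9 members. It averaged 12.4 ± 2.66 CPM in controls, 12.6 ± 7.72 in PAN rats, 7.91 ± 2.97 under pioglitazone and 10.4 ± 4.99 under GQ-16 (SD, n = 4 each), so the spread within PAN exceeded the differences between groups. Pdgfd, which acts mainly on Pdgfrb, measured 11.42, 13, 14.01 and 18.05 CPM in controls (14.1 ± 2.83, SD, n = 4) and 19.36, 13.85, 13.87 and 17.5 CPM in PAN rats (16.1 ± 2.75, SD, n = 4). It averaged 16.9 ± 3.56 CPM with pioglitazone and, at 8.528, 10.97, 10.55 and 12.81 CPM, 10.7 ± 1.76 with GQ-16 (SD, n = 4 each). All GQ-16 rats were below all PAN rats in Pdgfd.

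**Figure D1:**
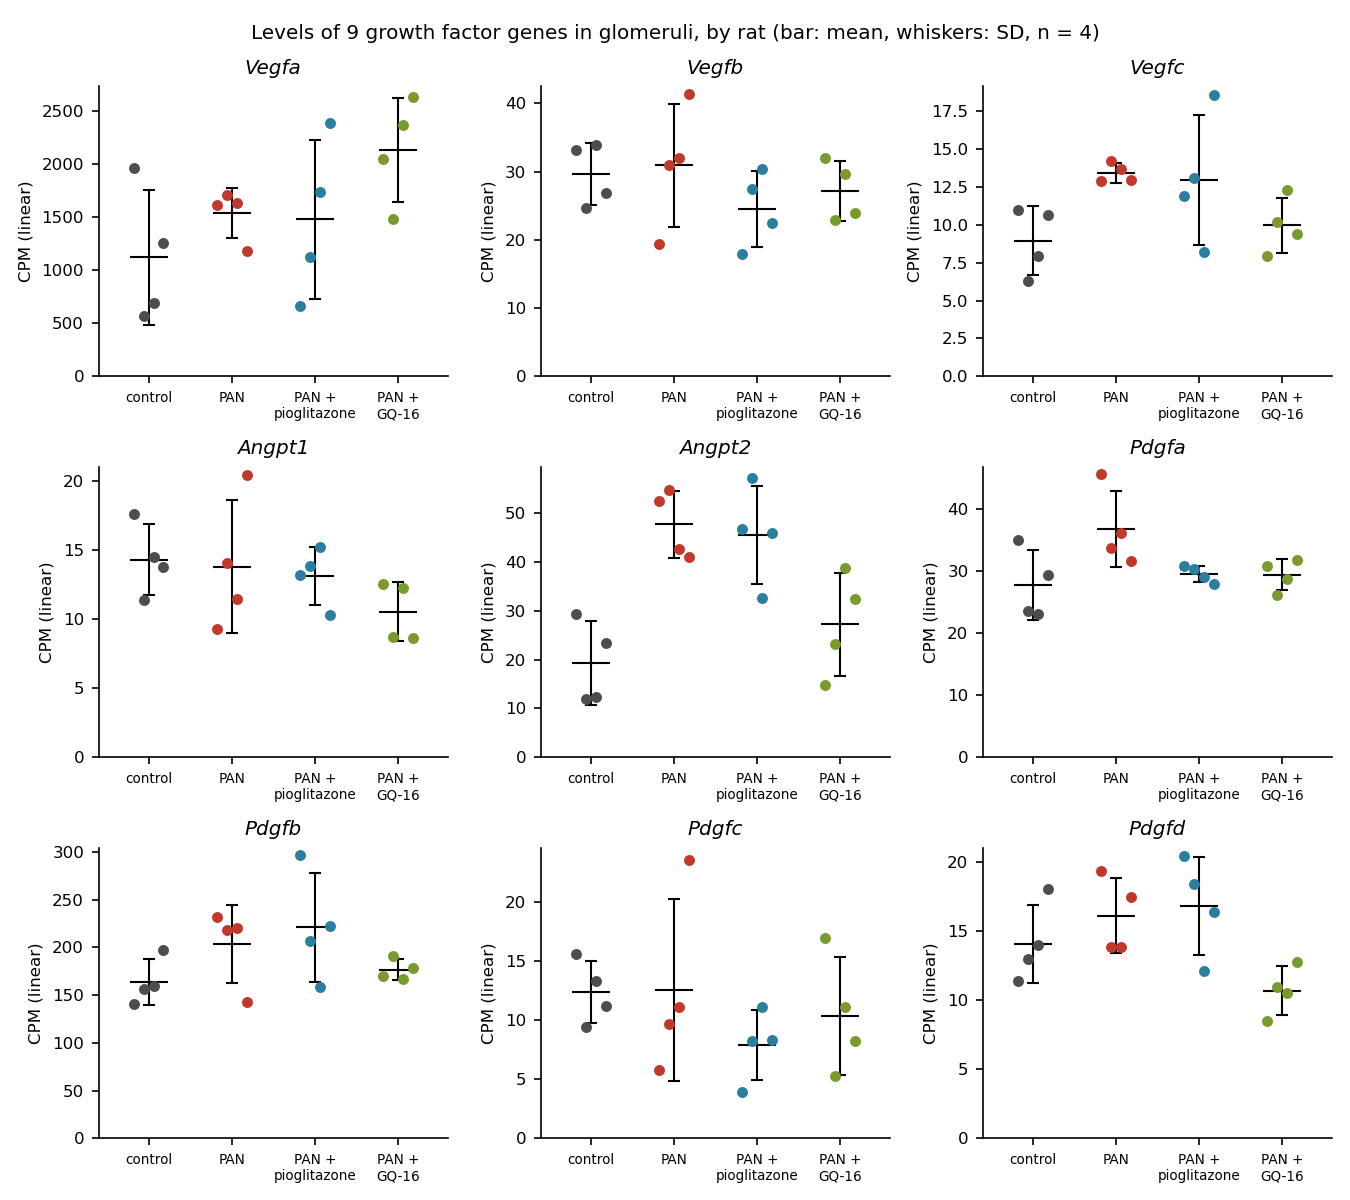
Level of each of the 9 ligand genes in CPM on a linear axis from 0, for the 4 rats of each of the 4 groups (points), with the group mean (bar) and SD (whiskers). Angpt2 in PAN rats, at 41.04 to 54.65 CPM, lies above all controls, whose highest value is 29.42 CPM, and the control rats of Vegfa spread from 571.8 to 1963 CPM.

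PAN was compared with control to ask which ligands differ in the diseased glomerulus. Angpt2 rose 2.55-fold on the CPM + 1 scale and was the clearest change among the members, and Pdgfa rose by a small margin that depended on the scaling. In all, 2 of 9 members were called higher and none lower by limma at a Benjamini-Hochberg adjusted p under 0.05, where 22.3% of all genes were called. Under median-ratio scaling 1 of 9 was called, beside 8.63% of all genes. These shares are close to the background, so the count is not a result about the members. The median log2 change of the 9 members was 0.30 under the library total, beside 0.28 for all genes.

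The Angpt2 log2 change was 1.35 (SE 0.297, 95% interval 0.72 to 1.98, adjusted p = 0.0072 by limma). Under median-ratio scaling it was 1.07 (limma adjusted p = 0.0186), and all PAN rats were again above all controls. The Angpt2 call held in each of the 16 fits that left out 1 rat, with limma adjusted p-values from 0.0021 to 0.0363, and under median-ratio scaling in 12 of 16. The 4 median-ratio fits that lost it left out control rat 2, control rat 3, PAN rat 1 or PAN rat 2, with limma adjusted p-values up to 0.0721. It was lost with library number as a covariate (log2 change 1.17, limma adjusted p = 0.113). Here and below, that covariate marks only whether a library is numbered 25 or higher, and not a trend over the numbers. The Angpt2 call was also lost with the podocyte marker score as a covariate (0.92, limma adjusted p = 0.0943) and with the mesangial and smooth muscle score as one (0.05, adjusted p = 0.987). Library number, these scores and the PAN group move together in these libraries and cannot be told apart.

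Pdgfa had a log2 change of 0.40 (SE 0.139, 95% interval 0.11 to 0.70, limma adjusted p = 0.0493). The Pdgfa difference was 0.11 under median-ratio scaling (limma adjusted p = 0.499) and the groups overlapped. The Pdgfa call was lost in 12 of the 16 fits that left out 1 rat, where the limma adjusted p reached 0.166; it held without control rat 1, control rat 4, PAN rat 4 or GQ-16 rat 2. Vegfc came next with a difference of 0.56 (95% interval 0.13 to 1.0004, limma adjusted p = 0.0581); the median-ratio value was 0.29 (adjusted p = 0.28). Vegfc passed in 4 of the 16 fits that left out 1 rat, those without control rat 1, control rat 4, pioglitazone rat 3 or pioglitazone rat 4, where the lowest limma adjusted p was 0.0304. Its PAN rats lay above all controls under both scalings, as did those of Angpt2. Of all genes 23.3% had no overlap between PAN and control, and 15.8% under median-ratio scaling.

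The other 6 members did not pass. Vegfa differed by 0.61 (95% interval -0.22 to 1.45, limma adjusted p = 0.239), an interval wide enough to hold both no change and a change of the size seen for Angpt2. It was 0.35 without control rat 2 and 0.94 without control rat 1. Pdgfb differed by 0.30 (limma adjusted p = 0.221), Pdgfd by 0.19 (adjusted p = 0.422) and Vegfb by 0.02 (adjusted p = 0.939). The signs of these 3 turned under median-ratio scaling, to -0.0036 for Pdgfb, -0.10 for Pdgfd and -0.27 for Vegfb. Leaving out 1 rat raised Pdgfb to 0.46 (without PAN rat 4) and took Pdgfd from 0.10 (without control rat 1) to 0.30 (without control rat 4). Angpt1 differed by -0.09 (limma adjusted p = 0.756) and Pdgfc by -0.12 (adjusted p = 0.809), and under median-ratio scaling they differed by -0.37 and -0.40. In a bulk sample fewer cells of a type and less RNA per cell cannot be told apart.

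Pioglitazone was compared with PAN alone to ask which ligands the drug group differs in. No member was called by limma, where 0% of all genes were called under the library total and 0% under median-ratio scaling. At an unadjusted p under 0.05 limma counted 495 of all genes, or 733 under median-ratio scaling. Adjusted p-values of the members ran from 0.916 to 0.981. Angpt2 differed by -0.08 (95% interval -0.71 to 0.55, limma adjusted p = 0.968), an interval that holds both a rise and a fall. The smallest unadjusted p was that of Pdgfa at 0.0488, with a difference of -0.30 (95% interval -0.59 to -0.0018, limma adjusted p = 0.916), or -0.19 without PAN rat 1. Pdgfa was the 1 member of 9 whose rats did not overlap, beside 2.76% of all genes; it overlapped under median-ratio scaling, where the share was 2.96%.

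GQ-16 was compared with PAN alone in the same way, and the comparisons with PAN share the PAN rats. No member was called by limma, and 0.0151% of all genes were called under the library total and 0% under median-ratio scaling. The library-total share is 2 genes. Leaving out 1 rat gave 0 to 9 genes, and the podocyte score as a covariate gave 46. At an unadjusted p under 0.05 limma counted 1094 of all genes, or 913 under median-ratio scaling. Members' adjusted p-values ran from 0.421 to 0.932. Angpt2 was 0.86 lower on the log2 scale (a difference of -0.86, SE 0.297, 95% interval -1.49 to -0.23), with an unadjusted p of 0.0107 and an adjusted p of 0.447 by limma. All 4 GQ-16 rats were below all PAN rats in Angpt2 under both scalings, and the median-ratio difference was -0.74 (limma adjusted p = 0.576). Pdgfd differed by -0.55 (95% interval -0.92 to -0.17, limma adjusted p = 0.421) and Vegfc by -0.41 (adjusted p = 0.634), both without overlap under the library total and with overlap under median-ratio scaling. Vegfa pointed the other way, with a difference of 0.45 (limma adjusted p = 0.810), and 0.58 without overlap under median-ratio scaling. With the mesangial and smooth muscle score as a covariate the difference was -0.19 for Angpt2, -0.11 for Vegfc and 1.33 for Vegfa. That fit called no member, beside 76 of all genes. Pdgfd ran from -0.59 to -0.40 over the alternatives that kept all rats. Thus 3 of 9 members did not overlap under the library total, beside 3.62% of all genes, and 2 of 9 under median-ratio scaling, beside 3.27%.

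The 2 compounds were also set against each other. No member was called by limma in GQ-16 against pioglitazone, where 0% of all genes were called under the library total and 0% under median-ratio scaling. At an unadjusted p under 0.05 limma counted 786 of all genes, or 958 under median-ratio scaling. Angpt2 differed by -0.78 (95% interval -1.41 to -0.15, limma adjusted p = 0.725) and Pdgfd by -0.60 (95% interval -0.97 to -0.22, adjusted p = 0.724). With the mesangial and smooth muscle score the Angpt2 difference was -0.45. Rats of both groups overlapped in both genes. The other 7 members had a limma adjusted p of 0.999. As the labels give no dose for either compound, the groups are those the study made and not matched doses.

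Against the controls, which these comparisons share, the pioglitazone group kept 1 called member. Angpt2 was 1.27 higher on the log2 scale (SE 0.297, 95% interval 0.64 to 1.90, limma adjusted p = 0.0257); the median-ratio value was 1.07 (adjusted p = 0.039). All 4 pioglitazone rats were above all controls, in a comparison where 14.1% of all genes did not overlap. The count of 1 of 9 stands beside 4.98% of all genes called, or 2.84% under median-ratio scaling. Leaving out control rat 2, control rat 3, pioglitazone rat 2 or pioglitazone rat 4 lost the Angpt2 call, with limma adjusted p-values of 0.109, 0.112, 0.0932 and 0.0692. Under median-ratio scaling the call held in 8 of the 16 fits that left out 1 rat, with limma adjusted p-values up to 0.139; it was lost without control rats 2, 3 or 4, PAN rats 2 or 3, or pioglitazone rats 1, 2 or 4. With only the libraries numbered 15 or lower the Angpt2 difference was 1.26 and the limma adjusted p 0.102. With the podocyte score as a covariate it was 0.96 (limma adjusted p = 0.0726), and with the mesangial and smooth muscle score 0.305 (adjusted p = 0.730). The fit with the mesangial and smooth muscle score called 0 of all genes in this comparison, with 1600 at an unadjusted p under 0.05. Vegfc differed by 0.46 (limma adjusted p = 0.159), Pdgfb by 0.41 (adjusted p = 0.163) and Pdgfc by -0.64 (adjusted p = 0.245). Without pioglitazone rat 4 Vegfc was 0.28, and without pioglitazone rat 1 Pdgfb was 0.26 and Pdgfc -0.38. Under median-ratio scaling the Pdgfc difference was -0.84 and its pioglitazone rats lay below all controls, where 11.8% of all genes did not overlap.

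In the GQ-16 group against control no member was called by limma, beside 0.151% of all genes, or 0.741% under median-ratio scaling. At an unadjusted p under 0.05 limma counted 3165 of all genes, or 3174 under median-ratio scaling. Angpt2 differed by 0.49 (limma adjusted p = 0.304), with 0.30 without GQ-16 rat 3 and 0.75 without GQ-16 rat 1. Vegfa differed by 1.07 (unadjusted p = 0.0156, limma adjusted p = 0.140); the median-ratio value was 0.89. Without control rat 1, whose Vegfa level of 1963 CPM was the highest of its group, the Vegfa difference was 1.39 and passed the test (limma adjusted p = 0.0327). With the podocyte score as a covariate the Vegfa difference was 0.19 and was not called. Angpt1 differed by -0.41 (limma adjusted p = 0.234). Its median-ratio difference was -0.58, with all GQ-16 rats below all controls, beside 11.8% of all genes without overlap under that scaling. Pdgfd differed by -0.36 (limma adjusted p = 0.222). Its median-ratio difference was -0.53 (adjusted p = 0.126), and it passed under that scaling without control rat 1 (-0.68, adjusted p = 0.0366).

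**Figure D2:**
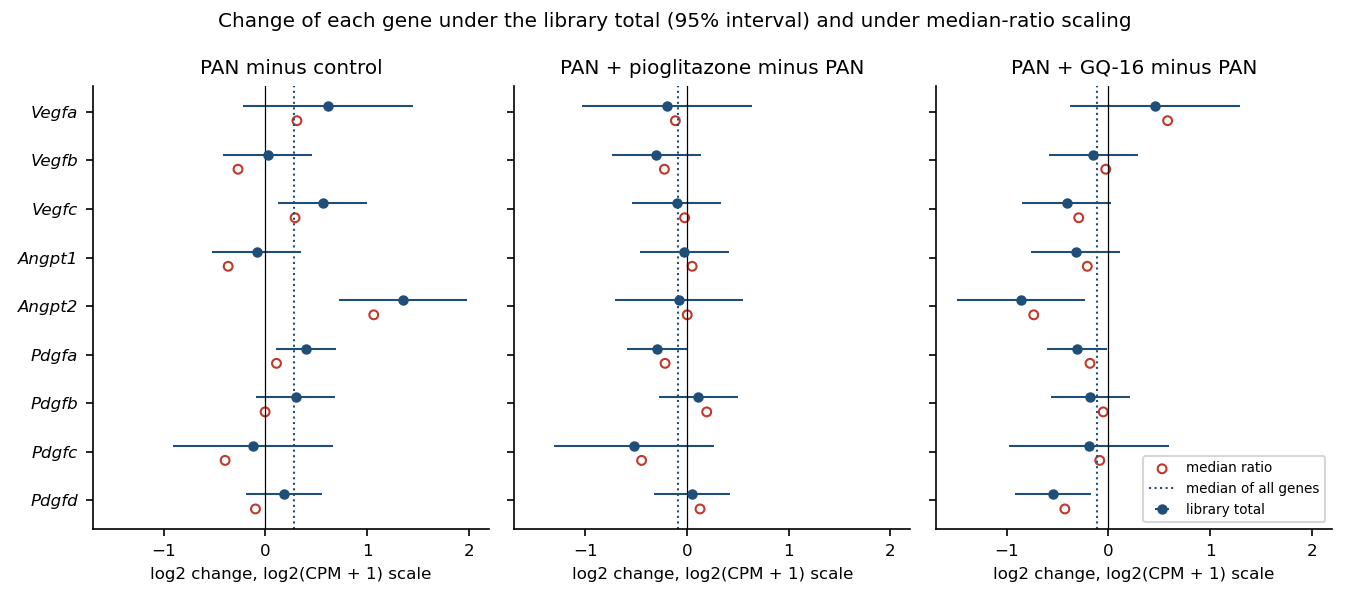
Log2 change of each ligand gene on the log2(CPM + 1) scale for PAN against control and for each drug group against PAN, as the value and 95% interval under the library total and the value under median-ratio scaling. Angpt2 stands at 1.35 and 1.07 in PAN against control, while in GQ-16 against PAN it stands at -0.86 and -0.74.

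The balance of the angiopoietins was followed as the log2 ratio of Angpt2 to Angpt1 within each library, which the library total barely moves. The ratio was 0.71, 0.07, -0.22 and 0.72 in controls (0.32 ± 0.47, SD, n = 4). In PAN rats it was 2.38, 1.89, 1.81 and 0.97 (1.76 ± 0.58, SD, n = 4), above every control. It was 1.75, 1.97, 1.05 and 2.06 with pioglitazone (1.71 ± 0.46, SD, n = 4), and 0.22, 1.31, 1.59 and 1.79 with GQ-16 (1.23 ± 0.70, SD, n = 4). Only the GQ-16 rats overlapped with the controls.

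The PAN ratio exceeded the control ratio by 1.44 in a two-sided exact permutation test (p = 0.0286, the smallest that 4 rats against 4 allow). After adjustment over 12 ratio tests the p was 0.171, so the difference did not pass. The ratio with pioglitazone exceeded the control by 1.39 with the same exact p and adjusted p. With GQ-16 the difference from control was 0.90 (exact p = 0.0857, adjusted p = 0.257) and from PAN -0.53 (exact p = 0.343). Without GQ-16 rat 1 the difference from PAN was -0.20, and over all such omissions it ran down to -0.80. Between pioglitazone and PAN the difference was -0.05 (exact p = 0.914).

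Vegfa was also set against the podocytes in each library, as its log2 level minus the mean log2 level of the 15 podocyte markers. This measure was 2.17, 2.76, 3.06 and 2.83 in controls (2.70 ± 0.38, SD, n = 4) and 1.84, 2.2, 2.24 and 1.94 in PAN rats (2.05 ± 0.20, SD, n = 4). Of the 4 PAN values 2 lay below the lowest control and the others just above it. Among controls the lowest measure was that of rat 1, whose podocyte mean was the highest (8.77). The highest was that of rat 3, whose podocyte mean was the lowest (6.38). With GQ-16 the measure fell from 3.14 in rat 2 to 2.07 in rat 4, while the podocyte mean rose from 7.40 to 9.29. PAN rats kept this order only in part, and pioglitazone rats did not. Whether differences in this measure follow the podocyte mean was not tested. The pioglitazone rats averaged 2.19 ± 0.11 and the GQ-16 rats 2.52 ± 0.48 (SD, n = 4 each). PAN differed from control by -0.65 in this measure (exact permutation p = 0.0857, adjusted p = 0.257), while the Vegfa level itself was 0.61 higher. The difference of GQ-16 from PAN was 0.46 (exact permutation p = 0.143, adjusted p = 0.286), and 0.25 without GQ-16 rat 2. No ratio test passed after adjustment.

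**Figure D3:**
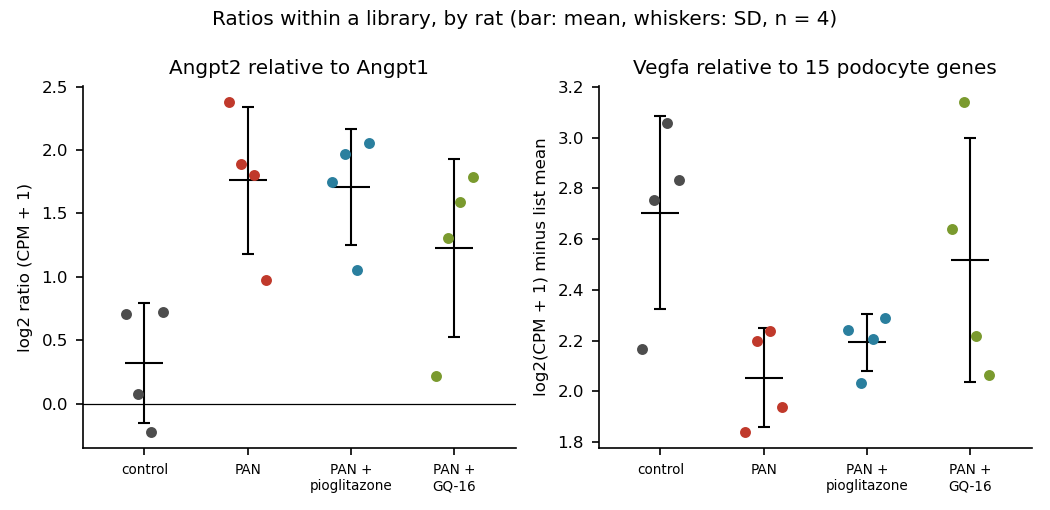
Log2 ratio of Angpt2 to Angpt1 (left) and log2 level of Vegfa minus the mean of 15 podocyte markers (right) for each rat (points), with the group mean (bar) and SD (whiskers). The angiopoietin ratio averages 0.32 in controls and 1.76 in PAN rats, and the podocyte-relative Vegfa level averages 2.70 and 2.05.

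The receptors of these ligands were described next, and 10 of 11 listed receptor genes were in the table; Pdgfrl was not analysed here. In PAN against control 1 of 10 was called higher and none lower by limma under either scaling, beside 22.3% of all genes called, or 8.63% under median-ratio scaling. That gene was Pdgfrb, the receptor of Pdgfb and Pdgfd on mesangial cells. Pdgfrb measured 278.3, 135.5, 101.6 and 234.4 CPM in controls (187 ± 82.7, SD, n = 4) and 763.2, 641.6, 459.7 and 355.4 CPM in PAN rats (555 ± 182, SD, n = 4). Every PAN rat was above every control. Pdgfrb was 429.8, 440, 373.1 and 504.1 CPM with pioglitazone (437 ± 53.7, SD, n = 4) and 232.9, 283.6, 358.7 and 356.7 CPM with GQ-16 (308 ± 61.0, SD, n = 4). Its log2 change in PAN was 1.61 (SE 0.291, limma adjusted p = 0.00226); the median-ratio value was 1.31 (adjusted p = 0.00434). With the mesangial and smooth muscle score as a covariate the Pdgfrb change was 0.19 (limma adjusted p = 0.881). With library number as a covariate it was 1.27 and just missed the threshold (adjusted p = 0.0514). In pioglitazone against control Pdgfrb rose by 1.32 (limma adjusted p = 0.0217), and that call was lost without control rat 2, control rat 3, pioglitazone rat 2 or pioglitazone rat 4, and over libraries numbered 15 or lower (adjusted p = 0.0605). With the mesangial and smooth muscle score as a covariate the Pdgfrb value with pioglitazone was 0.26 (limma adjusted p = 0.705). In both comparisons with control the fit with that score called 0 of all genes.

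Under these 2 scalings no endothelial receptor was called in PAN against control. Kdr, the main signalling receptor of Vegfa, averaged 2049 ± 345 CPM in controls, 1714 ± 466 in PAN rats, 2142 ± 529 under pioglitazone and 1795 ± 244 under GQ-16 (SD, n = 4 each). Flt1, which binds Vegfa and Vegfb and can act as a decoy, averaged 824 ± 101, 636 ± 150, 852 ± 270 and 687 ± 116 CPM in the same order. Tek, the angiopoietin receptor, averaged 743 ± 147, 544 ± 82.0, 723 ± 208 and 552 ± 131 CPM. Each of these 3 was lowest on average in PAN rats, and none of them passed the test. Tie1, the partner of Tek, averaged 797 ± 74.1 CPM in controls and 718 ± 136 in PAN rats, and Flt4, the Vegfc receptor, 108 ± 21.0 and 124 ± 30.2. Nrp1, a co-receptor of Vegfa, averaged 581 ± 96.4 and 592 ± 125 CPM, and Nrp2, a co-receptor of Vegfc, 29.4 ± 3.97 and 54.8 ± 36.9. Pdgfra, the receptor of Pdgfa, averaged 12.2 ± 2.54 CPM in controls and 15.1 ± 8.59 in PAN rats. For these receptors and Ptprb the limma adjusted p in PAN against control ran from 0.119 to 0.957, and under median-ratio scaling from 0.0769 to 0.832. Tek, Flt1, Kdr and Ptprb lay further below control once scaled by median ratios, and Flt4, Nrp1 and Pdgfra changed sign, from 0.18 to -0.12, from 0.015 to -0.29 and from 0.16 to -0.12. Tek differed by -0.44 under the library total and by -0.74 once scaled by median ratios (adjusted p = 0.0769 by limma). The same pair of values was -0.40 and -0.70 for Flt1 (median-ratio adjusted p = 0.0972), -0.50 and -0.80 for Ptprb (0.0781), and -0.28 and -0.59 for Kdr (0.183). Without PAN rat 4 the library-total values were -0.10 for Kdr and -0.22 for Flt1, and without PAN rat 3 Kdr was -0.43. With quantile normalization, an alternative scaling, Tek (-0.81, limma adjusted p = 0.0388) and Ptprb (-0.87, adjusted p = 0.0440) were called lower. The median of the 10 receptors was -0.07 under the library total and -0.38 under median-ratio scaling.

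Ptprb, the phosphatase that dampens Tek, was lower on average with GQ-16 than in controls, but did not pass the test. Ptprb measured 567.9, 744.2, 719.7 and 882.3 CPM in controls (729 ± 129, SD, n = 4) and 250.7, 365, 410.6 and 489 CPM with GQ-16 (379 ± 99.6, SD, n = 4). All GQ-16 rats lay below all controls, in a comparison where 6.01% of all genes did not overlap. The Ptprb difference was -0.97 (limma adjusted p = 0.0883); the median-ratio value was -1.14 (adjusted p = 0.0541). Without control rat 1 it passed under the library total (limma adjusted p = 0.0254). Ptprb averaged 523 ± 140 CPM in PAN rats and 699 ± 204 CPM with pioglitazone (SD, n = 4 each).

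**Figure D4:**
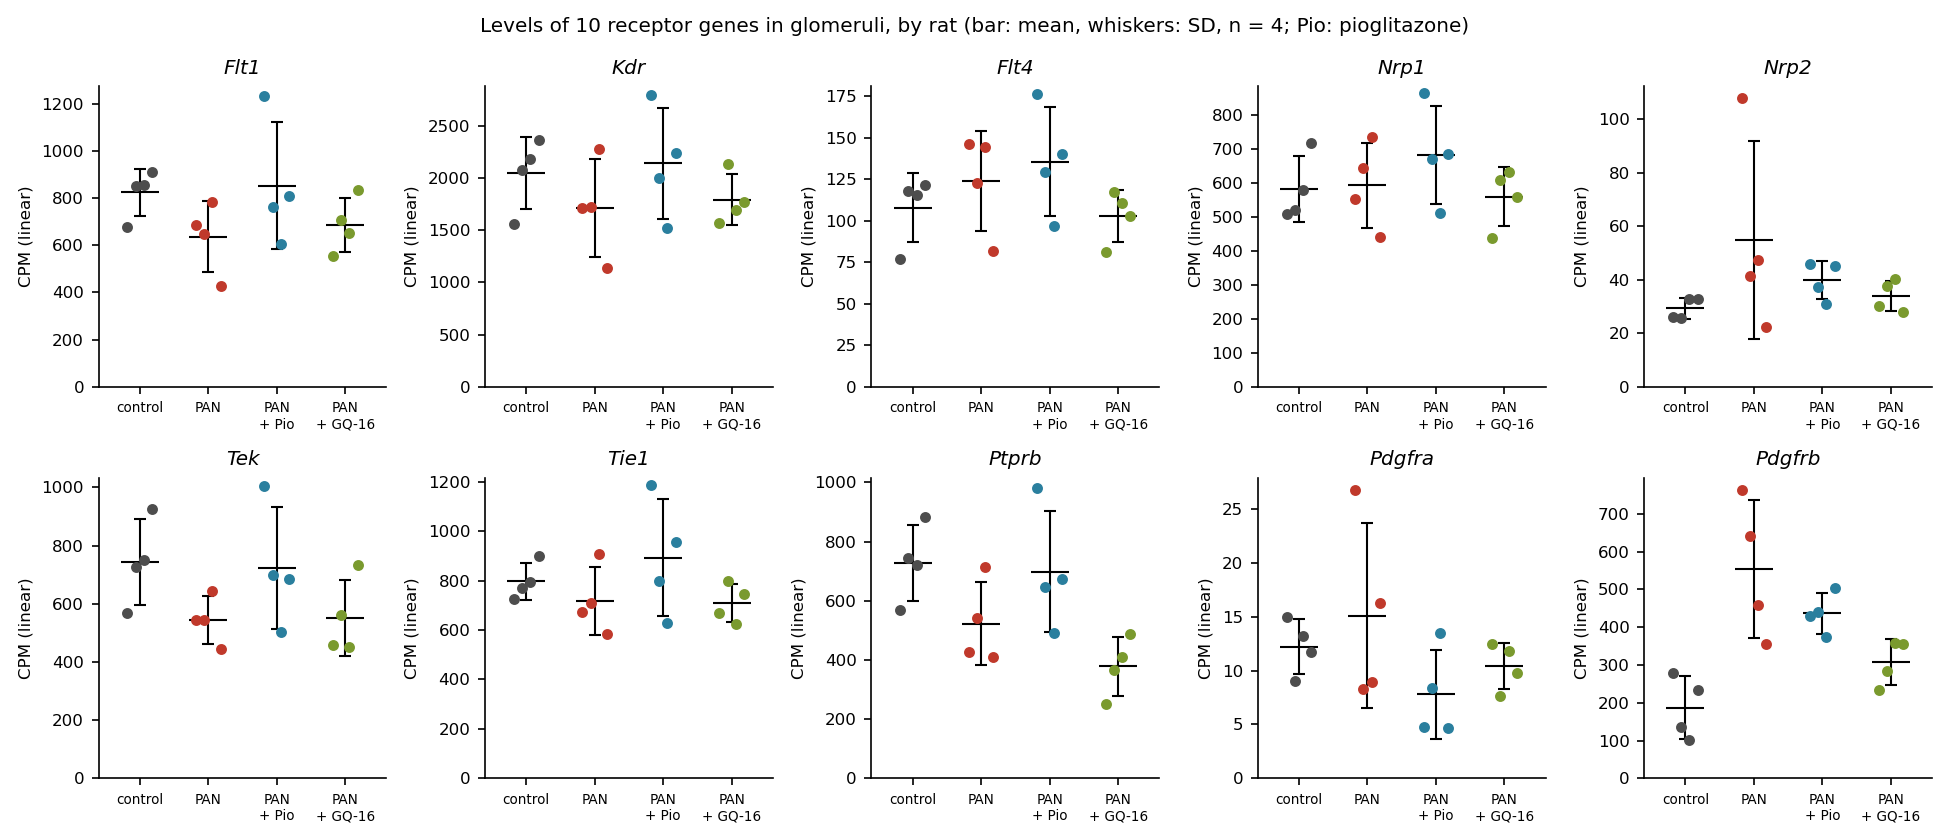
Level of each of 10 receptor genes in CPM on a linear axis from 0, for the 4 rats of each group (points), with the group mean (bar) and SD (whiskers). Pdgfrb is at 355.4 to 763.2 CPM in PAN rats and at 101.6 to 278.3 CPM in controls, and Ptprb in the GQ-16 rats lies below all controls.

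Other genes of the pathway were counted from lists chosen with earlier results of these data known, so the counts are a description, to be read beside the 22.3% of all genes called in PAN against control and the 8.63% under median-ratio scaling. Of 8 other ligands and ligand-processing enzymes found, 4 were called higher in PAN against control by limma and none lower, and 1 was under median-ratio scaling. That 1 was Vegfd, the other ligand of lymphatic growth, which rose from 14.2 ± 5.28 CPM in controls to 76.4 ± 18.5 CPM in PAN rats (SD, n = 4 each). The Vegfd change was 2.39 (SE 0.267, limma adjusted p = 0.000151); the median-ratio value was 2.10. Vegfd averaged 55.1 ± 6.96 CPM in the pioglitazone group and 46.7 ± 17.5 CPM in the GQ-16 group (SD, n = 4 each), and both were called against control, with changes of 1.95 (limma adjusted p = 0.00275) and 1.66 (adjusted p = 0.0201). The GQ-16 call was lost without control rat 2, control rat 3 or GQ-16 rat 3. It was also lost in the fit of only the 2 groups (limma adjusted p = 0.0621), with the podocyte score (1.28, adjusted p = 0.0968) and with the mesangial score (1.25, adjusted p = 0.304). The Vegfd call with pioglitazone was lost with the mesangial score too (1.34, adjusted p = 0.196). With that score 0 of all genes were called against control with either compound. Pcsk5, a proprotein convertase, rose by 1.46 (limma adjusted p = 0.0378) and Pcsk7, of the same family, by 0.32 (adjusted p = 0.0287). The fourth call was Ctsd, a lysosomal protease, with a change of 0.70 (limma adjusted p = 0.0423), named here after its value was seen. Under median-ratio scaling the limma adjusted p was 0.0885 for Pcsk5, 0.870 for Pcsk7 and 0.185 for Ctsd. The calls of these 3 were also lost in 6, 5 and 8 of the 16 fits that left out 1 rat, each without control rat 2, control rat 3, PAN rat 1 or PAN rat 2, and without PAN rat 1 the Ctsd change was 0.42.

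Of 24 hypoxia-response genes found, 4 were called higher by limma in PAN against control and none lower, beside the 22.3% of all genes. Under median-ratio scaling, where the share of all genes was 8.63%, 2 were higher and 1, Mxi1, was lower, a gene named after its value was seen. Adm, which encodes the vasodilator peptide adrenomedullin, rose from 20.2 ± 17.3 to 119 ± 6.46 CPM (SD, n = 4 each), a change of 2.82 (SE 0.468, limma adjusted p = 0.0014). Pfkfb3, a regulator of glycolysis, rose from 67.5 ± 25.8 to 162 ± 49.7 CPM (SD, n = 4 each), a change of 1.27 (limma adjusted p = 0.0116). These 2 also passed under median-ratio scaling, at changes of 2.54 for Adm and 0.97 for Pfkfb3. The Pfkfb3 call was lost with library number as a covariate (0.86, limma adjusted p = 0.216), with the podocyte score (0.63, adjusted p = 0.0855), and without control rat 2 or control rat 3. Higd1a, a mitochondrial protein gene, rose by 0.46 (limma adjusted p = 0.033), and Ldha, which encodes a lactate dehydrogenase subunit and is named after its value was seen, by 0.45 (adjusted p = 0.0415). Neither passed under median-ratio scaling, where the limma adjusted p was 0.345 for Higd1a and 0.475 for Ldha. Both calls were also lost without control rat 2, control rat 3, PAN rat 1 or PAN rat 2, Higd1a without PAN rat 4, and Ldha without pioglitazone rat 2 or GQ-16 rat 1; without PAN rat 1 the Ldha change was 0.29. The median change of the list was 0.15, below the 0.28 of all genes.

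Among 15 genes that respond in endothelium to VEGF or mark its activation 4 were called higher and none lower, and 1 under median-ratio scaling, beside 22.3% and 8.63% of all genes. Nr4a1, an immediate early gene, rose from 47.5 ± 2.88 to 100.2 ± 10.3 CPM (SD, n = 4 each), a change of 1.06 (limma adjusted p = 0.000665); the median-ratio value was 0.76. It was also called against control with pioglitazone, at 0.71 (limma adjusted p = 0.019), and with GQ-16, at 0.90 (adjusted p = 0.0219). Under median-ratio scaling the pioglitazone value was 0.49 and did not pass (limma adjusted p = 0.0802), and that call was lost in 8 of 12 alternatives and without control rat 2, control rat 3, pioglitazone rat 2 or pioglitazone rat 4. The GQ-16 value was 0.73 (adjusted p = 0.0395), and that call was lost in 3 of 12 alternatives and without control rat 2, control rat 3 or GQ-16 rat 3. Apln, a peptide of sprouting endothelial cells, rose by 1.32 (limma adjusted p = 0.0167), Hey2, a Notch target, by 0.63 (adjusted p = 0.0179), and Igfbp3, named after its value was seen, by 1.15 (adjusted p = 0.0488). Apln and Igfbp3 missed the threshold under median-ratio scaling, at limma adjusted p-values of 0.0641 and 0.147, as did Hey2 at 0.196. In PAN rats Apln ran from 6.362 to 28.1 CPM. Without PAN rat 1 its change was 0.86, and without control rat 2 it was not called (adjusted p up to 0.0666). Hey2 was not called without control rat 3 or PAN rat 1, and the Igfbp3 call was lost in 10 of the 16 fits that left out 1 rat.

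In the list of inhibitors and feedback regulators 9 of 15 were called higher in PAN against control by limma, and 4 of 15 under median-ratio scaling, with none lower. Its median change was 0.74, beside 0.28 for all genes. Thbs1, which encodes the secreted protein thrombospondin and limits angiogenesis, rose from 150 ± 72.2 to 392.2 ± 71.6 CPM (SD, n = 4 each), a change of 1.47 (limma adjusted p = 0.00228). Vash2, the relative of the inhibitor Vash1 that is known to favour vessel growth, rose from 2.79 ± 2.11 to 14.4 ± 6.81 CPM (SD, n = 4 each), a change of 2.06 (adjusted p = 0.0025). Spry1, a feedback inhibitor of receptor tyrosine kinases, rose from 26.7 ± 4.86 to 47.8 ± 9.39 CPM (SD, n = 4 each), a change of 0.81 (adjusted p = 0.00341). With library number as a covariate the Spry1 call was lost (0.73, limma adjusted p = 0.0543). With library number and median-ratio scaling together, the changes were 0.53 for Spry1, 0.99 for Thbs1 and 1.69 for Vash2, and none was called by limma (adjusted p = 0.0972, 0.0576 and 0.0511). With the mesangial and smooth muscle score as a covariate limma called 0 of all genes in PAN against control, with 1844 at an unadjusted p under 0.05. It also called 0 of all genes in pioglitazone against control and in GQ-16 against control. The lost calls therefore say nothing particular to these genes. In PAN against control that fit gave a change of 1.57 for Vegfd, 0.89 for Nr4a1 and 0.20 for Thbs1. It gave 0.78 for Vash2, 0.33 for Spry1 and 0.55 for Adm. The list's name does not describe all its members, since Vash2 is in it. No gene of the receptor list or of these 4 lists was called by limma against PAN with pioglitazone or with GQ-16.

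Levels of some cell type marker lists moved along with the PAN group, and those of others did not. Their counts stand beside the same 22.3% and 8.63% of all genes. Of 10 mesangial and smooth muscle markers 7 were called higher in PAN against control by limma, and 6 under median-ratio scaling. Their summed level was 772.2 to 1080 CPM in controls, 1778 to 2438 in PAN rats, 1264 to 1952 with pioglitazone and 1085 to 1665 with GQ-16. Controls and PAN rats did not overlap in this sum. Of 15 podocyte markers 5 were called higher, and 1 under median-ratio scaling, with sums of 3095 to 11260 CPM in controls and 8957 to 13120 in PAN rats. Called or not, 14 of the 15 were higher in PAN rats, with a median change of 1.43, or 1.13 under median-ratio scaling. Of 12 endothelial markers 1 was called higher, and 0 under median-ratio scaling, with sums of 4096 to 5730 and 4128 to 6080 CPM. Only 1 of the 12 lay above the median of all genes. Their median change was -0.04, or -0.33 under median-ratio scaling, beside 0.28 and -0.0025 for all genes. All 3 striated muscle markers in the table rose under both scalings, from sums of 4.775 to 25.41 CPM in controls to 369.4 to 581.6 in PAN rats. All 3 fibroblast markers found were higher, with a median change of 2.71, and 1 of them was called under both scalings, Col1a1, named after its value was seen. Their sums were 12.3 to 61.54 CPM in controls and 94.3 to 2598 in PAN rats, without overlap, and PAN rat 1 stood apart with a score of 8.83, where the other PAN rats reached 5.22 at most. Of 10 distal tubule and collecting duct markers 5 were called lower, and 4 under median-ratio scaling, and none of 10 proximal tubule markers was called. No proximal tubule marker was higher under either scaling, and their median change was -0.27, or -0.57 under median-ratio scaling. Of 12 leukocyte markers 6 were called higher, with sums of 302.5 to 440.4 CPM in controls and 403.6 to 1173 in PAN rats, and 1 under median-ratio scaling. Platelets are another source of PDGF, and the sum of their 3 markers present was 16.71 to 26.09 CPM in controls and 19.41 to 24.23 in PAN rats. The part of these markers in the changes of Angpt2, Pdgfa and Pdgfrb was not tested beyond the covariate fits above.

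Across the 16 rats several members followed a marker score, the mean log2(CPM + 1) of a cell type's markers. In all 36 relations of 9 members with 4 scores were computed, a choice made after seeing the data, with 100000 permutations and adjustment over the 36. Values were permuted over all 16 rats without regard to group, so these p-values also take in differences between groups. No p was computed with group means removed. No member is in the marker lists, but both share the library total. Vegfa followed the podocyte score, with r = 0.91 and rho = 0.89 (permutation p adjusted to 0.00012 for r and 0.00036 for rho). The raw p of 1e-05 is the smallest these permutations can give. The relation was r = 0.93 with group means removed, 0.85 under median-ratio scaling, 0.84 without the 2 rats farthest from the median podocyte score and 0.89 over the 11 libraries numbered 15 or lower. The podocyte scores of control rats 2 and 3 were 6.41 and 6.38, beside 8.77 in control rat 1, and these 3 rats held the low and high Vegfa values of their group.

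Pdgfb followed the endothelial score (r = 0.86, rho = 0.81, permutation p adjusted to 0.000144 and 0.0018). Within groups the Pdgfb relation was r = 0.94, under median-ratio scaling 0.88, without the 2 farthest rats 0.74 and over the libraries numbered 15 or lower 0.89. PAN rat 4, with the lowest Pdgfb of its group, also had the lowest endothelial score of the 16 rats, at 7.50. Pdgfb and the proximal tubule score ran opposite to each other, at r = -0.77. Pdgfd had r = 0.62 and rho = 0.68 with the endothelial score (permutation p adjusted to 0.0271 and 0.02), with r = 0.78 without the 2 farthest rats, 0.56 within groups and 0.67 under median-ratio scaling. For 4 more relations r passed and rho did not. They were Vegfb and Pdgfc with the endothelial score, at r = -0.64 and -0.70, and Angpt2 and Pdgfa with the podocyte score, at 0.62 and 0.64. Under median-ratio scaling these were -0.17, -0.42, 0.44 and -0.06, and without the 2 farthest rats -0.30, -0.40, 0.19 and 0.33.

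Angpt2 followed the mesangial and smooth muscle score (r = 0.89, rho = 0.82, permutation p adjusted to 0.000144 and 0.0018). Within groups the Angpt2 relation was r = 0.74, under median-ratio scaling 0.84, without the 2 farthest rats 0.78 and over the libraries numbered 15 or lower 0.89. The score itself had no overlap between controls, at 4.40 to 5.58, and PAN rats, at 6.28 to 6.90. Its genes include Des, Acta2 and Tagln. Which cells made them was not tested, so the name of the score does not fix the cell type. The pioglitazone rats did not share the relation: rat 2, with the highest Angpt2 of its group at 57.14 CPM, had its lowest score at 6.02, and rat 4, with the highest score at 6.60, held 45.89 CPM. Pdgfa had r = 0.75 with the same score, but 0.17 under median-ratio scaling, so that relation rests on the scaling. Vegfc had r = 0.74 and rho = 0.76 with it (permutation p adjusted to 0.00416 and 0.00504), with r = 0.56 without the 2 farthest rats, 0.52 within groups and 0.48 under median-ratio scaling.

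Vegfb, Pdgfc and Angpt1 followed the proximal tubule score, the measure of tubule fragments in the sieved glomeruli. For Vegfb r was 0.90 and rho 0.87 (permutation p adjusted to 0.00012 and 0.00084), and r was 0.91 over the libraries numbered 15 or lower. For Pdgfc r was 0.89 and rho 0.90 (adjusted to 0.00012 and 0.00036), with 0.85 without the 2 farthest rats. For Angpt1 r was 0.78 and rho 0.79 (adjusted to 0.00211 and 0.00318), with 0.67 without the 2 farthest rats. The relations of all 3 had an r between 0.79 and 0.90 under median-ratio scaling. PAN rat 4, with the highest proximal tubule score at 9.87, held the highest level in the PAN group of each of the 3 genes, and PAN rat 1, with the lowest at 7.85, held the lowest.

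**Figure D5:**
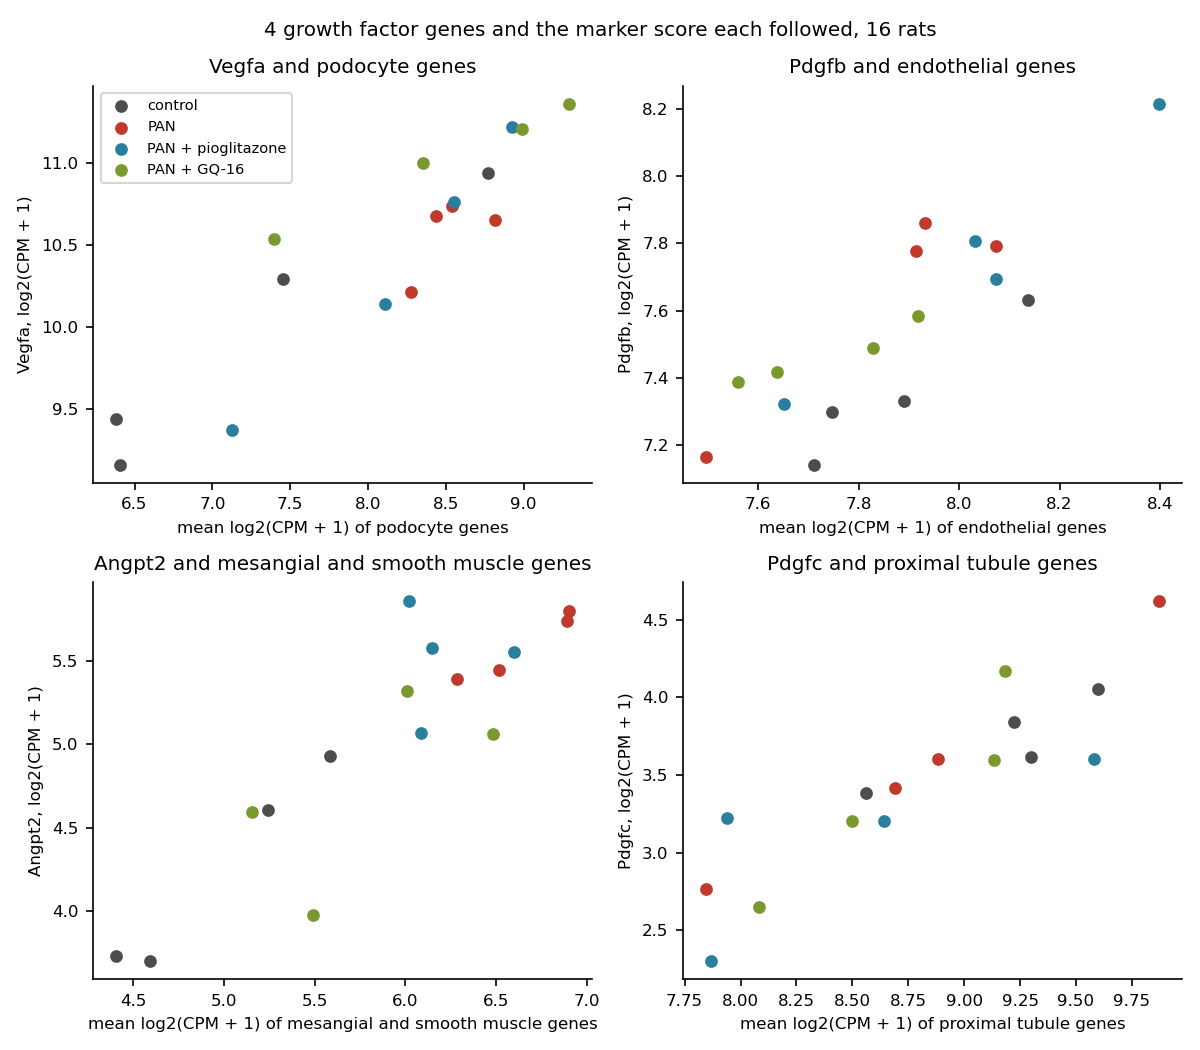
Log2(CPM + 1) of 4 ligand genes against the mean log2(CPM + 1) of the marker list each followed, 1 point for each of 16 rats, coloured by group. Vegfa rises with the podocyte score (r = 0.91), Pdgfb with the endothelial score (r = 0.86), Angpt2 with the mesangial and smooth muscle score (r = 0.89) and Pdgfc with the proximal tubule score (r = 0.89).

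The genes whose pattern over the 16 libraries was most like each member are given by Pearson r of log2(CPM + 1), as a description across libraries that share their totals. For Vegfa these were Nab2, Clic3 and Piwil4, each at r = 0.97. For Angpt2 they were Sorbs2, Kank4 and Ncam1, each at 0.97. For Pdgfb they were Tmem204 and Cdc42ep1 at 0.97 and Scarf1 at 0.96. For Pdgfc they were Dpp7 at 0.97, Hexa at 0.96 and Sycp3 at 0.95. For Vegfb they were LOC100360087 at 0.96 and Tuba4a and AC128792.2 at 0.94. Angpt1 was nearest to Cdh2 at 0.94, Ap2a2 at 0.91 and Lypla1 at 0.90, and Pdgfd to Frmd4b at 0.90, Vcan at 0.89 and Lnx2 at 0.86. The likeness held less well under median-ratio scaling for Vegfc and Pdgfa. Vegfc was nearest to Ttc9c at 0.91, Ccdc82 at 0.89 and Cfap45 at 0.88, which became 0.62, 0.67 and 0.82. Pdgfa was nearest to Maff at 0.91, Syngr2 at 0.90 and Prpsap1 at 0.89, which became 0.67, 0.69 and 0.60.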

How the data were processed

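RNA of sieved glomeruli was sequenced from polyA-selected stranded libraries of 16 rats, 4 in each group. The table deposited by the authors holds log2 values per gene and library. The submitters' processing notes name HISAT2, featureCounts, Subread, limma and Rnor_6.0, without versions or order. The deposited log2 values have the form of log2 CPM with 0.5 read added to each count and 1 to the total: undoing it gave whole reads for 100% of values at a tolerance of 0.1 read. A count of 3 reads corresponded to 0.137 to 0.225 CPM. Libraries of a group were compared for duplicates in 24 pairs, and none agreed within counting error (chi-square per gene 13.3 to 297).

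CPM was taken as 2 to the power of the deposited value. Genes were tested with limma 3.58.1 in R 4.3.3, with a variance trend, on log2(CPM + 1), which understates changes of low genes. A model of 4 group means was fitted to all 16 libraries, p-values were adjusted by Benjamini-Hochberg over 13222 genes, and genes with an adjusted p under 0.05 are called. The filter of a mean of 1 CPM removed 0 genes. The design had named a count model for a table of counts and limma for log2 values, and limma was used. Within-library ratios were compared by two-sided exact permutation over 70 assignments, with adjustment over 12 tests. Scripts were tested on simulated data.

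The members and lists were chosen with earlier results of these data known. The genes named are all members, 10 receptors whatever their values, the 3 genes with the smallest p in PAN against control of each other pathway list, and the 3 genes most correlated with each member; Ctsd, Ldha, Igfbp3, Mxi1 and Col1a1 were named after their values were seen. Alternatives were 2 other library totals or scalings, quantile normalization, a pseudocount of 0.1 CPM, a filter at 10 CPM, 2-group fits, voom on recovered reads, covariates and leaving out each rat. The library number covariate marked only whether a library is numbered 25 or higher. The fit with the mesangial and smooth muscle score, library number together with median-ratio scaling, the subset of libraries numbered 15 or lower in the gene fits and the marker correlations were added after seeing the data. Promoters are from RefSeq, GRCr8, where 9 entries matched the named ligands, 2 of them for Vegfa and none for Angpt1 or Angpt2.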

Additional observations from a re-analysis of the deposited data

Results flagged for a closer look

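In a group of 4 rats a value stood apart when its gap to the nearest other rat, divided by the range of its group, exceeded Dixon's critical value. Of 44 sets of values tested 2 did so, beside 2.2 that chance would give. Both were PAN rat 4. Vegfa in that rat was at a log2 CPM of 10.21 (1184 CPM), while the other 3 PAN rats lay between 10.65 and 10.74. Pdgfb in that rat was at a log2 CPM of 7.15 (142.3 CPM), while the others lay between 7.77 and 7.85. PAN rat 4 is also the only PAN library numbered 15 or lower, at 6.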

How the results depend on the processing

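The number of members called in PAN against control was 2. It was 1 under median-ratio scaling, the total without mitochondrial genes, quantile normalization, only the 2 groups compared and voom with median-ratio scaling. It was 0 with library number as a covariate, alone or with median-ratio scaling, and 0 with the podocyte or the mesangial and smooth muscle score. Leaving out each rat gave 1 to 3, with 3 without control rat 1. In pioglitazone against control the count of 1 became 0 with the podocyte score, the mesangial score, voom, library number with median-ratio scaling, and libraries numbered 15 or lower, and was 0 to 1 leaving out each rat. In GQ-16 against control it was 0 to 1, the 1 being Vegfa without control rat 1, where Pdgfd also passed under median-ratio scaling. No pioglitazone or GQ-16 comparison with PAN called a member under any alternative.

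Signs that turned were those of members that had not passed, apart from those under the mesangial score. In PAN against control, under median-ratio scaling, the total without mitochondrial genes, quantile normalization and voom in that order, Pdgfb was -0.0036, -0.015, -0.0115 and -0.0162, Vegfb -0.27, -0.28, -0.29 and -0.29, and Pdgfd -0.099, -0.11, -0.15 and -0.10. With library number Angpt1 was 0.29 and Pdgfc 0.24. With library number and median-ratio scaling Angpt1 was 0.097, Pdgfc 0.043, Pdgfb -0.093, Pdgfd -0.048 and Vegfa -0.11. With the podocyte score Vegfa was -0.27 and Vegfb -0.070. With the mesangial score Vegfa was -1.10, Pdgfa -0.079, Vegfc -0.033, Angpt1 0.077, Pdgfc 0.029, Pcsk5 -0.90, Igfbp3 -0.74, Pfkfb3 -0.15 and Ctsd -0.11, and in GQ-16 against control Angpt2 was -0.14. Leaving out each rat gave -0.28 to 0.070 for Angpt1, -0.46 to 0.16 for Pdgfc and -0.13 to 0.22 for Vegfb. In pioglitazone against PAN Angpt2 was 0.0026 under median-ratio scaling, 0.0028 without mitochondrial genes, 0.017 under quantile normalization, 0.045 with library number, 0.036 with the podocyte score, 0.0015 with voom, 0.066 with library number and median-ratio scaling and 0.26 with the mesangial score, and -0.19 to 0.069 leaving out each rat. The Angpt2 to Angpt1 ratio in that comparison was -0.32 to 0.17 leaving out each rat. The cause was not tested.

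Over all genes PAN against control gave 2943 calls, 1141 under median-ratio scaling, 838 to 4964 leaving out each rat and 0 with the mesangial score. Pioglitazone against control gave 659, with 48 to 1660 leaving out each rat, and GQ-16 against control 20, with 0 to 1572. Both of these also gave 0 with the mesangial score. No paired analysis was possible because the labels number libraries and pair no rats between groups. The ratio of Pgf to Vegfa was not run. With 4 rats a group the exact tests cannot go below p = 0.0286. The lowest member value rested on 70 reads, and the part of counting error in the spread was not tested.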
